A study of Homo sapiens with 4 samples.

Results

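The cytosolic and mitochondrial heat-shock chaperones were followed in HCCLM3, a human hepatoma cell line, as 38 genes chosen by name for their function: heat-shock proteins, their J-protein and nucleotide-exchange partners, the cytosolic chaperonin, the HSP90 co-chaperones and the heat-shock factor HSF1. All 38 were listed, with 198 of the 38510 transcripts and among 13036 genes, and all 38 passed the filter on low values. The RNA came from cells infected with lentivirus carrying a control short hairpin RNA (shCtrl, 2 libraries) or a hairpin against KIAA1429 (shKIAA1429, 2 libraries). KIAA1429, also called VIRMA, belongs to the enzyme complex that places N6-methyladenosine (m6A) marks on transcripts. All 4 libraries came from the same cell line, no further treatment or heat shock was named in the labels, and the study kept the infected cells as stable knockdown cells. Nothing in the labels says that the replicates were separate cultures, so p-values measure only the spread between these libraries. The level of a gene was its FPKM, a fragment count divided by transcript length and library size, summed over the listed transcripts. Values per library are given in the order of the replicate numbers. In bulk RNA, a lower level in every cell and a loss of RNA from some of the cells cannot be told apart.

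Heat-shock chaperones bind proteins that are unfolded or still folding and keep them from sticking together. HSP70 proteins grip short greasy stretches in a cycle driven by ATP, which J proteins start and nucleotide-exchange factors reset. HSP90 receives partly folded kinases and steroid receptors from HSP70, with co-chaperones ordering the steps. The CCT chaperonin is a barrel of different subunits that folds actin and tubulin. In mitochondria, HSPA9, HSPD1 and HSPE1 do the same work for imported proteins. HSF1 drives the inducible members by binding heat shock elements, which are repeats of the letters GAA in alternating orientation. Tumour cells, hepatoma cells among them, commonly carry high levels of these proteins.

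The libraries were first checked against their labels. VIRMA read 9.37 and 14.1 FPKM in shCtrl and 6.90 and 8.52 FPKM in shKIAA1429. Both knockdown libraries were below both controls, but the difference did not pass the test (log2 fold change -0.53, SE 0.24, limma adjusted p = 0.917). Of 10 hepatocyte markers 3 were analysed here. KRT8 (1019 to 1176 FPKM) and KRT18 (971 to 1073 FPKM) were abundant in every library, SERPINA1 was low (3.34 to 5.63 FPKM), and the others, ALB and AFP among them, were not analysed here. Of 9 markers of immune, endothelial and stromal cells, CD68 (44.1 to 52.3 FPKM), ACTA2 (47.4 to 53.3 FPKM) and COL1A1 (3.54 to 6.76 FPKM) were analysed. Mitochondrially encoded transcripts took 9.29% to 10.6% of the summed FPKM. Read depth per library is unknown.

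The chaperones were among the most abundant RNAs of these cells. Their FPKM together made up 0.849% and 1.03% of the library total in shCtrl and 0.772% and 0.923% in shKIAA1429. The share was thus higher in replicate 2 than in replicate 1 of either group, and the groups overlapped. The median member had a mean level of 61.4 FPKM, against 7.76 FPKM for the median of the 11657 genes tested. HSP90AB1, the constitutive cytosolic HSP90, stood highest with a mean of 556.9 FPKM, and its lowest library (506 FPKM) lay above the highest library of every other member. The small heat-shock protein HSPB1 (mean 382 FPKM) and the constitutive HSP70 HSPA8 (mean 286 FPKM) followed, and their ranges over the libraries overlapped. Most of the HSPA8 sum came from HSPA8-222 (51.3% to 52.7%) and HSPA8-212 (35.6% to 37.2%), neither of which spans the whole gene. Summed FPKM of such partial transcripts can count the same molecules more than once, so the level and rank of HSPA8 are uncertain. BAG2 (2.85 FPKM), BAG1 (4.26 FPKM) and HSPA14 (5.32 FPKM) were the lowest.

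**Figure D1:**
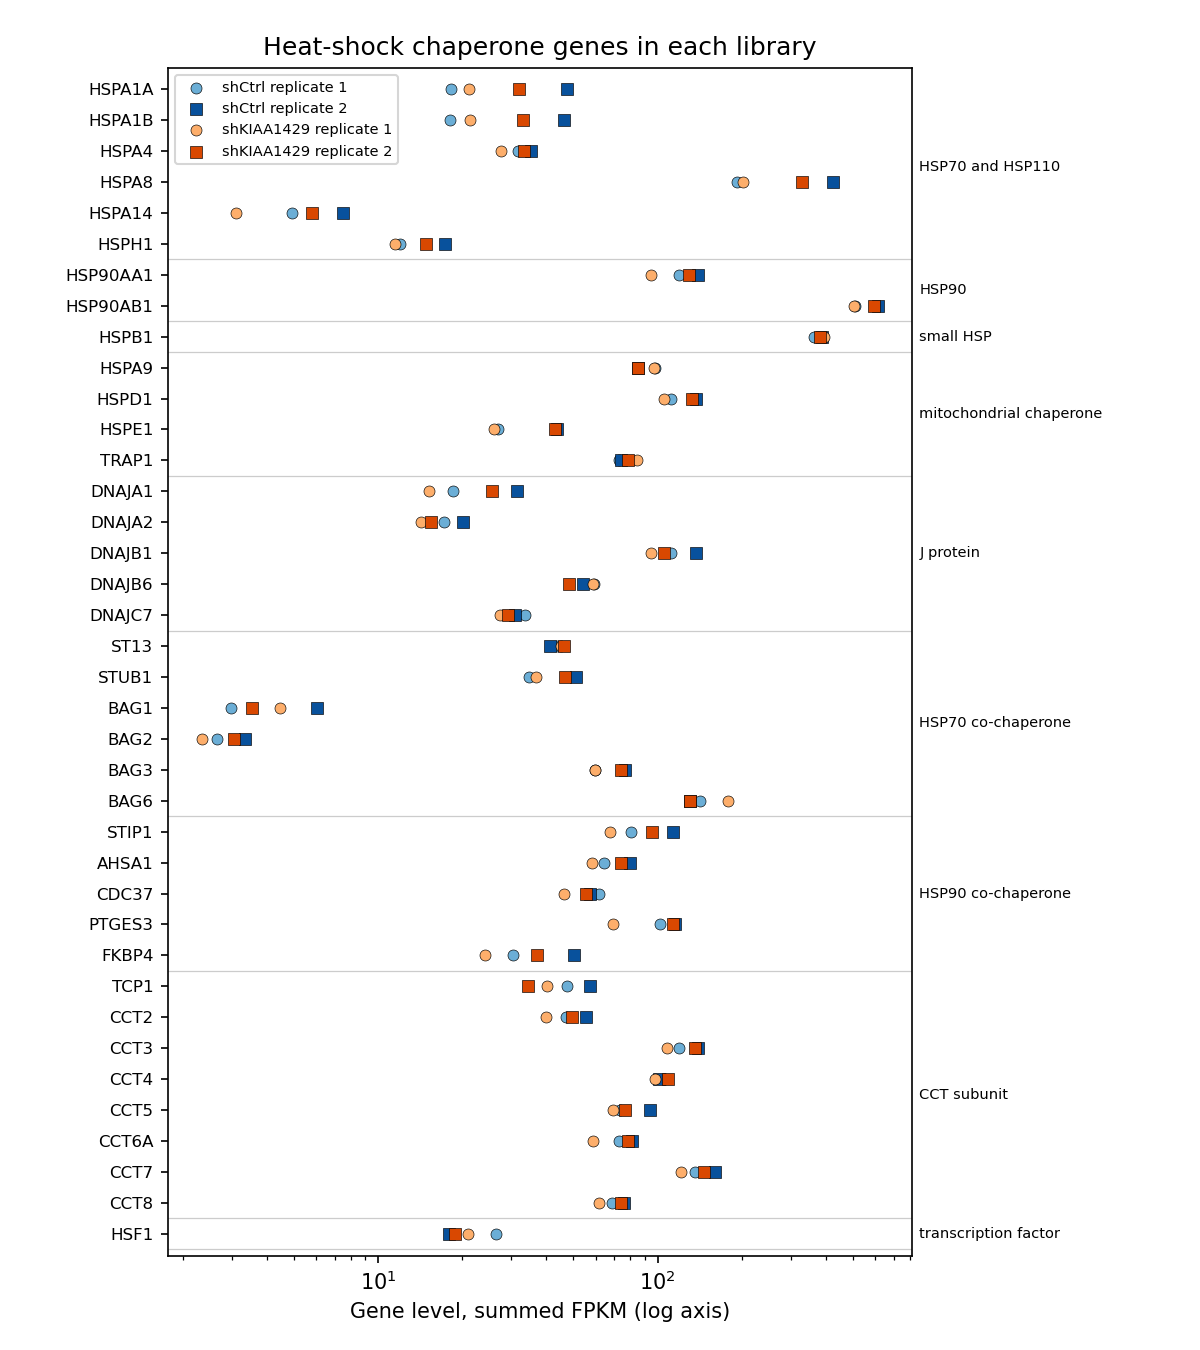
Level of each of the 38 chaperone genes in each library, as summed FPKM on a log axis; circles are replicates 1 and squares replicates 2, blue for shCtrl and orange for shKIAA1429, with genes grouped by role. The squares lie to the right of the circles in both groups for HSPA1A, HSPA1B, HSPA8, HSPE1, DNAJA1 and FKBP4, while for most genes the colours overlap.

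The start regions of several members carried the letters that HSF1 recognises. They are shown as a description of these genes, and a link to the spread between libraries described below was not tested. Start regions of 300 bases, 250 before the start and 50 after, were found for 32 of the 38 members in the RefSeq table (GRCh38.p14). They were searched for a heat shock element of 3 units, GAANNTTCNNGAA, or TTCNNGAANNTTC, which is the same element read on the opposite strand, so that both strands were covered. At least 1 match was found in 6 of the 32 members (18.8%), against 0.608% of all 27305 genes with an entry and 0.424% of the 8719 tested genes with an entry. The 6 were HSPA8, HSPD1, HSP90AA1, HSP90AB1, DNAJA1 and DNAJB6. A shorter form of 2 units, GAANNTTC or TTCNNGAA, which every 3-unit match also holds, was found in 16 of the 32 (50%) against 16.2% of all entries. A match is a description of the letters and no evidence of binding in these cells.

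The 250 bases before the start of HSPA8 held a pair of 3-unit matches, in capitals, the first beginning 230 bases before the start (chr11:123062137-123062386, minus strand, GRCh38.p14).
HSPA8: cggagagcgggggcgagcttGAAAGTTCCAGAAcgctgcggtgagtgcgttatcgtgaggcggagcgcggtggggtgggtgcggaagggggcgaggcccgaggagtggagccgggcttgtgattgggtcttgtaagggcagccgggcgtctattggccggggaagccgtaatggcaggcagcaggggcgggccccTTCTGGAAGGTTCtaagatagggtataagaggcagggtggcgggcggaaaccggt
For the other members with a 3-unit match, a short window around it is enough to show the element, again in capitals.
HSPD1: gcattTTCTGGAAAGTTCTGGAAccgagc
HSP90AB1: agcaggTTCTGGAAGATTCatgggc
HSP90AB1: agattgTTCTGGAAGCTTCtggatt
HSP90AA1: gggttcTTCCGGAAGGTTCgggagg
DNAJB6: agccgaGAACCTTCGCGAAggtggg
DNAJA1: cgggcgGAACTTTCCAGAAcgctcg
In the order given, these windows lie at chr2:197500062-197500090 (minus strand), chr6:44247772-44247796 and chr6:44247825-44247849 (plus strand), chr14:102087114-102087138 (minus strand), chr7:157336867-157336891 (plus strand) and chr9:33025270-33025294 (plus strand) of GRCh38.p14. The HSPD1 run holds a pair of overlapping matches and begins 245 bases before the RefSeq start of HSPD1. It begins 294 bases from the RefSeq start of HSPE1, since the genes lie head to head on chromosome 2. The main listed transcripts of the pair start elsewhere, since they overlap by 281 bases, as given below. The run therefore need not lie before the starts of those transcripts. The DNAJA1 element begins 3 bases after the RefSeq start, the others before theirs.

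HSPA1A and HSPA1B, the stress-inducible HSP70 genes, held a 2-unit match and no 3-unit match in the same window. Their start regions are shown because they are nearly the same (235 of 249 aligned bases, 94.4%), as are the genes themselves.
HSPA1A: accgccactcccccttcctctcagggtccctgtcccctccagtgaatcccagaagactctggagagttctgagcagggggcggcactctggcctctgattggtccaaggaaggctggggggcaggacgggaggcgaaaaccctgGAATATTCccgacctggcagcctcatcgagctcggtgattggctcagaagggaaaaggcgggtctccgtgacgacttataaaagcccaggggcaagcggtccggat
HSPA1B: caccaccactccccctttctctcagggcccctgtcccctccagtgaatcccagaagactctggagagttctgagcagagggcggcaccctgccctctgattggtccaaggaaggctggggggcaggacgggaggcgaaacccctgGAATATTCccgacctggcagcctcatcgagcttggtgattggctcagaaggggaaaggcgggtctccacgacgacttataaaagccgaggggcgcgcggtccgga
They lie at chr6:31815293-31815542 and chr6:31827488-31827737 (plus strand, GRCh38.p14), with the 2-unit match in capitals. Of the windows of 100 bases in the main HSPA1A transcript, 72.4% occur letter for letter in HSPA1B, and of those in HSPA1B 68.9% occur in HSPA1A, so how reads were divided between these single-exon genes is uncertain.

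The comparison the design implies is that of shKIAA1429 with shCtrl, which asks what knockdown of KIAA1429 does to RNA levels. No chaperone gene passed a limma adjusted p under 0.05 with an absolute log2 fold change over 1 (0 of 38), where 0% of all tested genes passed. The smallest limma adjusted p of any gene was 0.238, so a gene that did not pass is not thereby shown to be unchanged. The paper, which ran DESeq on read counts with the same thresholds, did report differentially expressed genes. Fold changes are given as log2(FPKM + 1) of the knockdown libraries minus that of the controls. With an unadjusted p under 0.05, 0 of 38 were higher (background 2.98%) and 1 of 38, the chaperonin subunit TCP1, was lower (background 2.65%). Both knockdown libraries lay above both controls for 2 of 38 genes (5.26%, background 16.9%), TRAP1 and ST13. They lay below for 5 of 38 (13.2%, background 16.7%), TCP1, DNAJA2, DNAJB1, DNAJC7 and CDC37. These shares were near or under those of all genes. None of the 38 had an absolute log2 fold change over 1, against 1.07% of all genes.

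Small negative values were the rule. The fold change was below 0 for 34 of 38 genes (89.5%), against 51.9% of all genes, with a median of -0.13 against -0.01. That median turned on single libraries: it was -0.28 without shKIAA1429 replicate 2 and -0.27 without shCtrl replicate 1, but -0.0046 without shCtrl replicate 2 and 0.03 without shKIAA1429 replicate 1. By role, the values were negative for 6 of 6 cytosolic HSP70 and HSP110 genes (median -0.14), both HSP90 genes, 5 of 5 J proteins (median -0.28), 5 of 5 HSP90 co-chaperones (median -0.25) and 8 of 8 CCT subunits (median -0.16). They were negative for 3 of 4 mitochondrial chaperones (median -0.02) and 4 of 6 HSP70 co-chaperones (median -0.02). The members' median deviation from each gene's mean was -0.05 and 0.20 in shCtrl and -0.21 and 0.08 in shKIAA1429. The lowest was a knockdown library and the highest a control, and of the remaining pair the knockdown library was the higher.

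**Figure D2:**
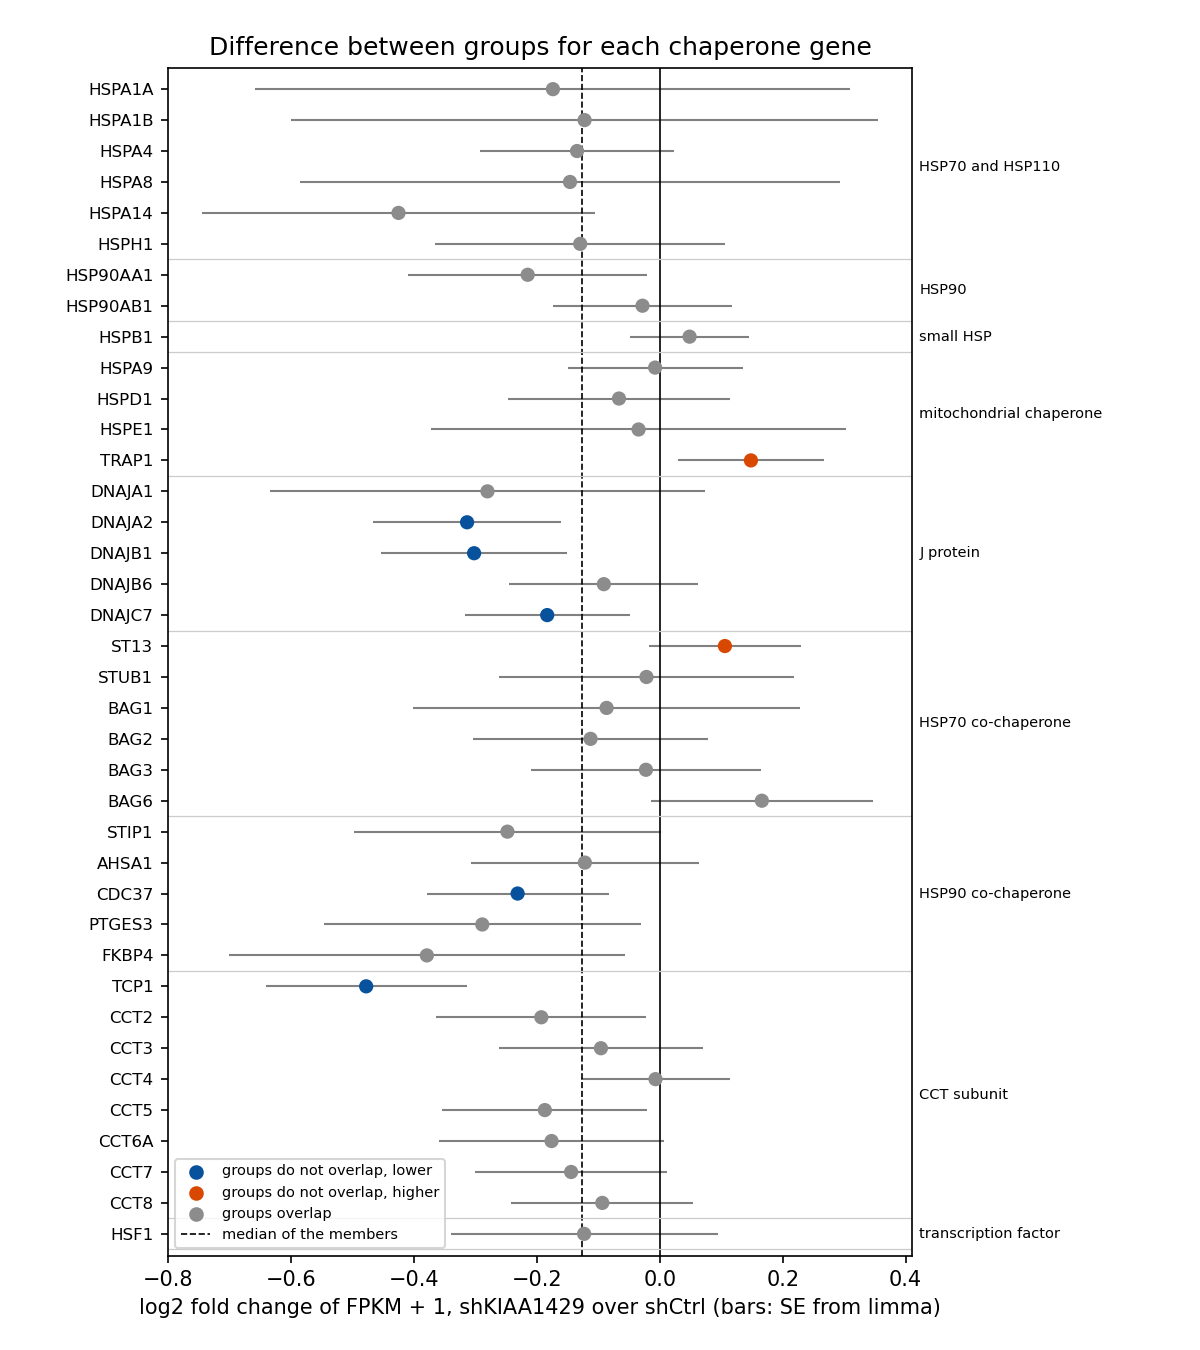
Log2 fold change of FPKM + 1, shKIAA1429 over shCtrl, for each of the 38 genes by role (points), with the standard error from limma (bars); blue and orange mark genes whose 2 libraries per group do not overlap, and the dashed line is the median of the 38. TCP1 lies farthest to the left at -0.48 and BAG6 farthest to the right at 0.17.

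The cytosolic HSP70 genes showed no difference beyond the spread between libraries. HSPA8, which folds new proteins in unstressed cells, read 192 and 423 FPKM in shCtrl and 202 and 329 FPKM in shKIAA1429. The knockdown libraries both lay between the controls (log2 fold change -0.15, SE 0.44, limma adjusted p = 0.999). HSPA1A, which is transcribed on stress, read 18.2 and 47.4 FPKM in shCtrl and 21.1 and 32.0 FPKM in shKIAA1429. Its neighbour HSPA1B read 18.1 and 46.2 FPKM in shCtrl and 21.4 and 33.1 FPKM in shKIAA1429. For this pair too, the knockdown values lay inside the range of the controls, and the fold changes were -0.17 (SE 0.48) and -0.12 (SE 0.48). The HSPA1A value turned on the controls, at -0.84 with shCtrl replicate 1 left out and 0.49 with shCtrl replicate 2 left out. The ratio of HSPA8 to HSPA1A stayed between 8.92 and 10.6 in all 4 libraries, so the constitutive and the inducible gene differed between libraries in step. The size of this ratio is uncertain, since the HSPA8 level was summed over partial transcripts. The ratio of HSPA1B to HSPA1A was 0.975 to 1.03, for genes that share most of their letters.

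The remaining cytosolic members of the family are a ribosome-bound HSP70 and a pair of HSP110 exchange factors. HSPA14, which sits on ribosomes with a J protein, read 4.93 and 7.46 FPKM in shCtrl and 3.09 and 5.80 FPKM in shKIAA1429. It had the second most negative fold change of the 38 (-0.43, SE 0.32, limma adjusted p = 0.969), and the groups overlapped. HSPH1, the inducible HSP110 that resets HSP70, read 12.0 and 17.4 FPKM in shCtrl and 11.5 and 14.9 FPKM in shKIAA1429 (fold change -0.13, SE 0.24). HSPA4, another HSP110, was the steadiest of these genes at 31.8 and 35.2 FPKM in shCtrl and 27.6 and 33.4 FPKM in shKIAA1429. Its groups overlapped as well (fold change -0.13, SE 0.16).

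The HSP90 pair kept its order in every library. HSP90AB1 read 509 and 616 FPKM in shCtrl and 506 and 596 FPKM in shKIAA1429, a fold change of -0.03 (SE 0.15, limma adjusted p = 0.999). HSP90AA1, the more inducible isoform, read 119 and 139 FPKM in shCtrl and 94.6 and 130.0 FPKM in shKIAA1429 (-0.21, SE 0.19, limma adjusted p = 0.979). Replicate 1 of the knockdown lay below both controls and replicate 2 between them. The ratio of HSP90AB1 to HSP90AA1 was 4.27 and 4.42 in shCtrl and 5.35 and 4.59 in shKIAA1429, so both knockdown libraries had the higher ratio. No test was run on that ratio.

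The 5 HSP90 co-chaperones ranged from 24.1 to 115 FPKM over genes and libraries. CDC37, which loads kinases onto HSP90, read 61.9 and 57.5 FPKM in shCtrl and 46.2 and 55.6 FPKM in shKIAA1429. It was the only co-chaperone of HSP90 whose groups did not overlap, with a fold change of -0.23 (SE 0.15, limma adjusted p = 0.954). FKBP4, an immunophilin of steroid receptor complexes, had the most negative fold change among them (-0.38, SE 0.32), with 30.5 and 50.4 FPKM in shCtrl and 24.1 and 37.1 FPKM in shKIAA1429. PTGES3, the p23 co-chaperone of the late HSP90 cycle, stood at 69.1 FPKM in shKIAA1429 replicate 1 and at 102 to 115 FPKM in the other libraries. STIP1, which bridges HSP70 and HSP90, and AHSA1, which speeds up the HSP90 ATPase, gave -0.25 (SE 0.25) and -0.12 (SE 0.19). The groups of these last 4 genes overlapped.

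HSPB1, the small heat-shock protein that holds unfolded proteins without ATP, had a small spread. It read 364 and 387 FPKM in shCtrl and 393 and 383 FPKM in shKIAA1429. The fold change was 0.05 (SE 0.10, limma adjusted p = 0.999), and the groups overlapped. It did not share the gap between replicates seen in HSPA8 and HSPA1A.

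The mitochondrial chaperones were close to equal in both groups. HSPA9, the mitochondrial HSP70, read 98.2 and 85.0 FPKM in shCtrl and 97.0 and 85.1 FPKM in shKIAA1429 (fold change -0.01, SE 0.14). HSPD1, the HSP60 barrel, read 112 and 138 FPKM in shCtrl and 105 and 133 FPKM in shKIAA1429 (-0.07, SE 0.18). HSPE1, the HSP10 lid of that barrel, read 26.9 and 43.7 FPKM in shCtrl and 26.0 and 42.9 FPKM in shKIAA1429 (-0.03, SE 0.34). For these genes each knockdown library lay close to the control with the same replicate number, and what such libraries share was not tested. The ratio of HSPD1 to HSPE1, which share a start region, was 4.16 and 3.15 in shCtrl and 4.05 and 3.10 in shKIAA1429. Their main transcripts overlap by 281 bases on opposite strands (HSPD1 at 198351310 to 198364998, HSPE1 at 198364718 to 198368181, chromosome 2, GRCh37), and where strand is not used reads from that stretch cannot be told apart. Of the 100-base windows of the main HSPE1 transcript, 31.7% also occur in other genes, 20.5% in the read-through gene HSPE1-MOB4, so its level, its ratio to HSPD1 and its gap between replicates are uncertain. TRAP1, the mitochondrial HSP90, read 72.9 and 74.1 FPKM in shCtrl and 84.6 and 78.7 FPKM in shKIAA1429. It was higher in both knockdown libraries, by 0.15 (SE 0.12, limma adjusted p = 0.972).

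J proteins hand substrates to HSP70 and start its ATPase. DNAJB1, the inducible partner of HSPA8, read 111 and 137 FPKM in shCtrl and 94.8 and 105 FPKM in shKIAA1429. Both knockdown libraries were below both controls, with a fold change of -0.30 (SE 0.15, limma adjusted p = 0.926). DNAJA2, a constitutive J protein, read 17.2 and 20.2 FPKM in shCtrl and 14.2 and 15.4 FPKM in shKIAA1429. Its groups did not overlap either (-0.31, SE 0.15, limma adjusted p = 0.924), and neither gene passed the test. DNAJC7, which also binds HSP90, had groups that did not overlap (27.4 and 29.2 FPKM below 33.7 and 30.8 FPKM) and a fold change of -0.18 (SE 0.13). DNAJA1 went from 15.2 to 31.5 FPKM over the libraries (-0.28, SE 0.35) and DNAJB6, which stops aggregates of polyglutamine proteins, from 48.1 to 59.3 FPKM (-0.09, SE 0.15).

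The CCT chaperonin has 8 subunits in fixed proportions in the protein complex, and all 8 were measured. TCP1, the alpha subunit, read 47.6 and 57.3 FPKM in shCtrl and 40.3 and 34.4 FPKM in shKIAA1429. It was the member with the most negative fold change (-0.48, SE 0.16), with means of 52.5 ± 6.85 FPKM in shCtrl and 37.3 ± 4.20 FPKM in shKIAA1429 (SD, n = 2). Its unadjusted p in limma was 0.034 and its adjusted p 0.875, so it did not pass the test. Leaving out a library moved the value between -0.61 and -0.35. The other 7 subunits ranged from -0.19 (CCT2, SE 0.17, and CCT5, SE 0.17) to -0.01 (CCT4, SE 0.12), and the groups of each overlapped. CCT7, the most abundant subunit RNA, read 121 to 160.1 FPKM over the libraries, and CCT2 39.9 to 55.3 FPKM. The ratio of CCT7 to TCP1 was 2.86, 2.79 and 3.01 in both shCtrl libraries and shKIAA1429 replicate 1, and 4.28 in shKIAA1429 replicate 2. TCP1 stood apart from its partner in that library alone. Of the main CCT5 transcript, 51.2% of the 100-base windows also occur in another gene of the GENCODE annotation, so its level is uncertain.

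The HSP70 co-chaperones divided into steady and variable genes. BAG6, which guards tail-anchored proteins, read 142 and 130.4 FPKM in shCtrl and 178 and 131 FPKM in shKIAA1429. Its fold change of 0.17 (SE 0.18) was the highest of the 38 and rested on 1 transcript in a single library: BAG6-249 took 24.7% of the gene in shKIAA1429 replicate 1 and read 0.0873 to 0.207 FPKM in the others. With BAG6-249 left out, an alternative chosen after the values were seen, BAG6 read 142 and 130.3 FPKM in shCtrl and 134 and 130.7 FPKM in shKIAA1429, a fold change of -0.04 (SE 0.11, limma adjusted p = 0.999). ST13, the HIP protein that slows the HSP70 cycle, was steady and higher in both knockdown libraries (45.3 and 46.2 FPKM, against 43.6 and 41.2 FPKM), by 0.11 (SE 0.12, limma adjusted p = 0.987). BAG3, which couples HSP70 to autophagy, ranged from 59.7 to 76.4 FPKM with a fold change of -0.02 (SE 0.19), and STUB1, the ubiquitin ligase CHIP, from 34.6 to 51.0 FPKM (-0.02, SE 0.24). BAG1 (2.97 to 6.06 FPKM) and BAG2 (2.34 to 3.35 FPKM) were the lowest of the group. Of the BAG2 windows 41.9%, and of the STUB1 windows 29.4%, also occur in a neighbouring gene. Windows shared with other genes made up 15.9% for ST13, 13.8% for TRAP1, 13.2% for HSPA14 and 12.5% for DNAJC7. The levels of these genes are uncertain to that extent.

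HSF1, the transcription factor of the inducible members, read 26.3 and 18.0 FPKM in shCtrl and 21.0 and 18.9 FPKM in shKIAA1429. The highest library was shCtrl replicate 1, in which HSPA8, HSPA1A and HSPA1B were lowest, while the inducible DNAJB1, HSPH1 and HSP90AA1 were lowest in shKIAA1429 replicate 1. The groups overlapped (fold change -0.12, SE 0.22, limma adjusted p = 0.992). HSF1 acts mainly through its own activation as a protein, which RNA levels do not measure.

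The spread between libraries of the same group was larger than the difference between groups for most chaperones. The difference between replicates exceeded the absolute fold change in both groups for 26 of 38 genes (68.4%), against 45.8% of all genes. It also had a common direction. Replicate 2 was above replicate 1 in both groups for 26 of 38 genes (68.4%, against 34.9% of all genes), with a median difference on the log2 scale of 0.24 in shCtrl and 0.28 in shKIAA1429. The direction was then examined at a difference of over 0.5 in both groups, a limit set with these values in view. It was passed by 7 of 38 genes (18.4%), HSPA1A, HSPA1B, HSPA8, HSPA14, HSPE1, DNAJA1 and FKBP4, against 2.77% of all genes. HSPA1A and HSPA1B share most of their letters and need not be separate measurements, and the gap of HSPE1 is uncertain, so this share may be too high. HSPA14 lay just inside at 0.51 and 0.73 and STIP1 just outside at 0.499 and 0.488. The labels do not say that a number marks a shared culture, day or run, and a source of this common direction was not tested.

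The size of that gap differed between families. HSPA1A was 2.61 times as high in replicate 2 as in replicate 1 of shCtrl, and 1.52 times in shKIAA1429. For HSPA8 the gap was 2.21 and 1.63 times, and for DNAJA1 1.70 and 1.69 times. HSPE1 differed by 1.63 and 1.65 times, while HSPD1, with which it shares its start region, differed by 1.24 and 1.27 times. By family, the median gap on the log2 scale was 0.82 in shCtrl and 0.59 in shKIAA1429 for the cytosolic HSP70 and HSP110 genes, and 0.23 and 0.27 for the CCT subunits. In the opposite direction lay HSPA9, DNAJB6, BAG6 and HSF1, which were lower in replicate 2 of both groups. BAG1 pointed in opposite directions in the groups, with gaps of 0.83 and -0.27. Its transcripts exchanged places between libraries. BAG1-212 read 8e-06 and 3.95 FPKM in shCtrl and 2.61 and 3.5e-05 FPKM in shKIAA1429. BAG1-208 read 1.77 and 0 FPKM in shCtrl and 0 and 1.93 FPKM in shKIAA1429. The part of this exchange in the gaps of BAG1 was not tested. Of the 6 genes with a 3-unit heat shock element, HSPA8 and DNAJA1 were among the 7 with a gap over 0.5 in both groups. HSP90AB1, HSP90AA1 and HSPD1, which hold the element as well, had gaps of 0.22 to 0.45, and DNAJB6 lay on the opposite side. HSPA14 and FKBP4, which are among the 7, had no entry in the table of start regions, so they were not searched. HSPA1A, HSPA1B and HSPE1, also among the 7, were searched and held no 3-unit match. For HSPE1 the search ended 250 bases before its RefSeq start, while the HSPD1 run begins 294 bases from that start, just outside. A link between the element and the gap was not tested.

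**Figure D3:**
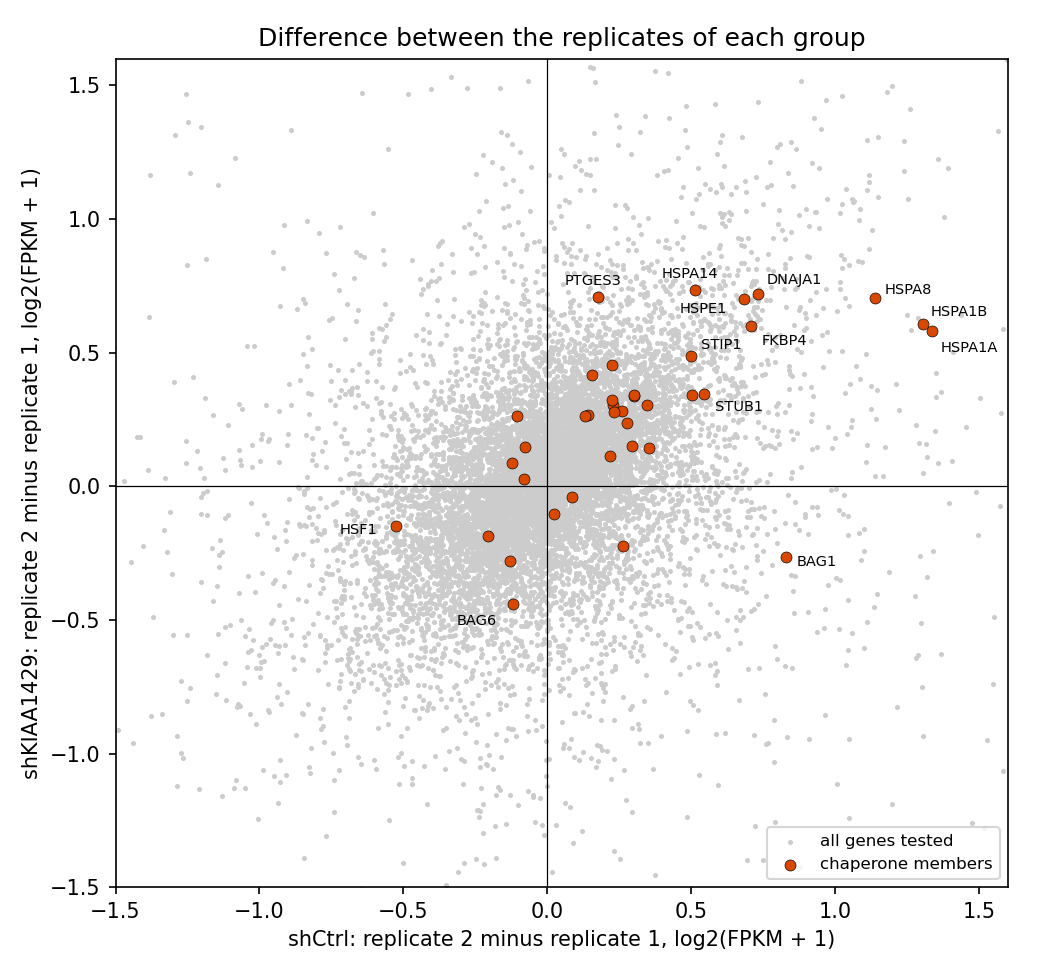
Difference between replicate 2 and replicate 1 on the scale of log2(FPKM + 1), in shCtrl (horizontal axis) and in shKIAA1429 (vertical axis), for the 38 chaperone genes (orange) and all tested genes (grey; 145 genes beyond the axes are not drawn). HSPA1A, HSPA1B and HSPA8 lie at the far right with values of 1.14 to 1.34 in shCtrl, and most orange points lie in the upper right.

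Single transcripts were compared to see whether a gene's value rested on 1 of them. Of 149 member transcripts tested, 0 passed both thresholds (0% of all transcripts). With an unadjusted p under 0.05, 3 were higher (background 3.1%) and 7 lower (background 3.18%). FPKM assigned to overlapping transcripts of a gene depends on how the quantification divided shared reads, so a transcript's value is less certain than that of its gene. For FKBP4, HSPA14, DNAJA2 and DNAJB1, whose fold changes follow that of TCP1 in size, a single transcript made up nearly the whole gene. DNAJB1-201 read 106 and 130.2 FPKM in shCtrl and 90.3 and 96.8 FPKM in shKIAA1429, and DNAJA2-201 16.7 and 19.6 FPKM and 13.5 and 14.4 FPKM. FKBP4-201 read 29.4 and 45.9 FPKM in shCtrl and 22.6 and 33.7 FPKM in shKIAA1429, and HSPA14-201 4.42 and 6.90 FPKM and 2.89 and 5.37 FPKM. No member had a transcript under 0.1 FPKM in both libraries of one group and at 5 FPKM or more in both of the other.

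TCP1 rested on a pair of transcripts that exchanged places in 1 library. TCP1-202 read 29.3 and 31.6 FPKM in shCtrl, 25.1 FPKM in shKIAA1429 replicate 1 and was listed at 0 in shKIAA1429 replicate 2. TCP1-201 read 11.1, 12.7 and 9.03 FPKM in the first 3 of these and 27.6 FPKM in shKIAA1429 replicate 2. Summed, the pair gave 40.5, 44.4, 34.2 and 27.6 FPKM. They share 94.6% of the exonic bases of the shorter, so few reads could separate them. The library in which the exchange occurred is also the one with the lowest TCP1 level and the high ratio of CCT7 to TCP1, and the part of the exchange in the gene's level was not tested.

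The same exchange was seen in other members, chosen after their values were seen. CCT3-211 read 91.4 and 100.1 FPKM in shCtrl, 0.804 FPKM in shKIAA1429 replicate 1 and 106 FPKM in shKIAA1429 replicate 2, while CCT3-201 stood at 93.6 FPKM in that single low library and at 20.3 to 33.6 FPKM in the others. The gene CCT3 differed by less, from 108 to 140.0 FPKM. HSP90AB1-201 dropped out in the same library, at 16.7 FPKM against 147 to 179 FPKM elsewhere, with HSP90AB1-203 at its highest there (453 FPKM). In PTGES3, PTGES3-204 was low in shKIAA1429 replicate 1 (2.68 FPKM against 37.6 to 48.7 FPKM), and PTGES3-207 was low in shCtrl replicate 2 (2.07 FPKM against 20.7 to 25.8 FPKM). HSPH1-202 was listed at 0 in shKIAA1429 replicate 2, where HSPH1-209, under 1 FPKM in the other libraries, read 10.2 FPKM. Among member transcripts that reached 10 FPKM, 8 of 70 (11.4%) had 1 library under 10% of the highest with the next above 25% of it, against 273 of 6425 (4.25%) of all transcripts. The low library was shKIAA1429 replicate 1 for 5 of the 8, shKIAA1429 replicate 2 for 2 and shCtrl replicate 2 for 1. Of the 273, it was shKIAA1429 replicate 1 for 95, shKIAA1429 replicate 2 for 70, shCtrl replicate 2 for 64 and shCtrl replicate 1 for 44.

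**Figure D4:**
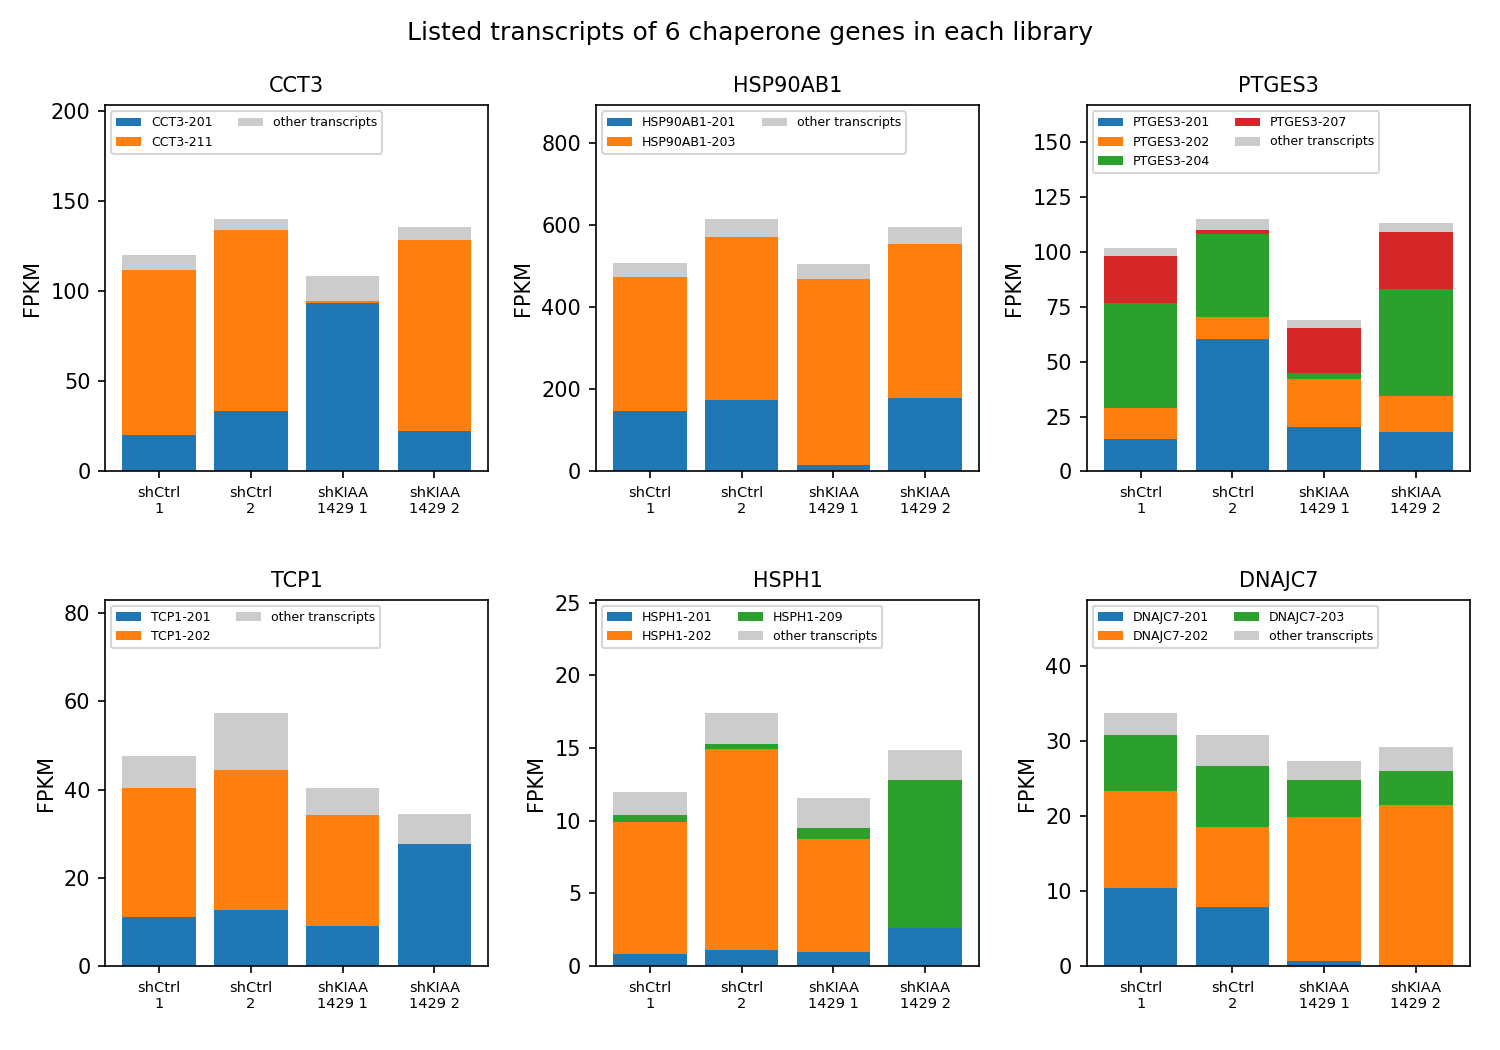
FPKM of the listed transcripts of 6 chaperone genes in each library, stacked so that the bar height is the gene level; colours mark transcripts that held a large share in some library and grey the rest. In TCP1 and HSPH1 the main transcript is missing from shKIAA1429 replicate 2, in CCT3 it changes in shKIAA1429 replicate 1, and in DNAJC7 the blue transcript is near 0 in both knockdown libraries.

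In DNAJC7, BAG6 and CCT8 some transcripts had values in both knockdown libraries that lay apart from both controls. DNAJC7-201 read 10.4 and 7.84 FPKM in shCtrl, 0.719 FPKM in shKIAA1429 replicate 1 and was listed at 0 in replicate 2 (log2 fold change -2.93, limma adjusted p = 0.226). DNAJC7-202 read 13.0 and 10.6 FPKM in shCtrl and 19.2 and 21.4 FPKM in shKIAA1429 (0.74, limma adjusted p = 0.549). The pair shares 91.8% of the shorter one's exonic bases, and their sum was 23.4 and 18.5 FPKM in shCtrl and 19.9 and 21.4 FPKM in shKIAA1429, with overlapping groups. DNAJC7-203 read 7.37 and 8.16 FPKM in shCtrl and 4.89 and 4.64 FPKM in shKIAA1429 (-0.60, limma adjusted p = 0.648), so that the groups of the whole gene did not overlap. BAG6-237 read 2.62 and 2.19 FPKM in shCtrl and 12.7 and 12.5 FPKM in shKIAA1429 (2.0, limma adjusted p = 0.149). BAG6-234 read 0.312 and 0.403 FPKM in shCtrl and 21.8 and 9.36 FPKM in shKIAA1429 (3.50, limma adjusted p = 0.240). BAG6-236 lay lower, at 24.1 and 19.6 FPKM in shCtrl and 12.6 and 9.42 FPKM in shKIAA1429 (-0.93, limma adjusted p = 0.538). CCT8-211, a minor transcript of its gene, read 4.91 and 2.95 FPKM in shCtrl and 0.191 and 0.0245 FPKM in shKIAA1429 (-2.13, limma adjusted p = 0.253). None of these passed the test over 24996 transcripts.

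The letters GGAC, a common form of the sequence in which m6A is written, were counted in the main transcripts on the sense strand. The members with a sequence held a median of 3.72 per kilobase (n = 37), against 3.75 for 11319 tested genes. Single members ranged from 1.25 to 9.50, and no test was run on these counts.

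Other genes of the same pathways were taken from a list of functions of 62 genes, of which 54 were listed and 52 tested. With an unadjusted p under 0.05, 1 of 52 was higher (1.92%, background 2.98%) and 0 of 52 were lower (background 2.65%). The gene was TOMM34, a cytosolic co-chaperone that binds HSP70 and HSP90 and serves mitochondrial import. It read 24.7 and 27.7 FPKM in shCtrl and 35.3 and 34.9 FPKM in shKIAA1429, with a fold change of 0.41 (SE 0.13, limma adjusted p = 0.840). The groups did not overlap for 9 genes that were higher (17.3%, background 16.9%) and 10 that were lower (19.2%, background 16.7%). The fold change was below 0 for 34 of 52 (65.4%), with a median of -0.06. Replicate 2 was above replicate 1 in both groups for 22 of the 52 (42.3%), against 34.9% of all genes. Both of these shares lay between those of the 38 members and those of all genes.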

How the data were processed

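The authors prepared libraries with the NEBNext Ultra kit and sequenced paired reads; their methods name TopHat, HTSeq and DESeq, and the submitters' processing notes name Bowtie2 2.1.0 and hg19. The deposited values are FPKM per transcript, made by the authors with a tool not given in the sources used here; strand and multiple-mapping rules are not given either. Depth is unknown, and no interval that needs it is printed. Positions in the files are GRCh37.

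Groups and replicate numbers came from the sample titles. FPKM were summed per gene identifier. A gene was tested where 2 or more samples reached 1 FPKM (11657 genes; 24996 transcripts by the same rule). The groups were compared on log2(FPKM + 1), which understates changes of low genes, by a moderated linear model (limma 3.58.1, R 4.3.3) with a trended prior variance and group as the only term, two-sided, with Benjamini-Hochberg adjustment over the whole table. With 2 against 2 samples an exact permutation test cannot go below 0.333, so none was used. The script was tested on simulated data. The members and lists were chosen with earlier results of these data known. All 38 members are named; values per library are given for chaperones proper, HSF1, members with an unadjusted p under 0.05 and members whose groups do not overlap with an absolute fold change over 0.3. Values of other members given in full, and transcripts outside TCP1, HSPA14, FKBP4, DNAJA2 and DNAJB1, were chosen after they were seen. Promoters are from RefSeq, GRCh38.p14; exon bases and shared windows are from the GENCODE annotation on GRCh37, which held 97.2% of the listed transcripts.

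Alternatives were scaling to the upper quartile, testing every listed gene, a filter that all samples must pass, 0.1 in place of 1 as pseudocount, a replicate block, leaving out each library, a robust variance estimate, protein coding transcripts alone, HSPA1A and HSPA1B summed, BAG6 without its transcript 249 (added after seeing the data), and either threshold alone.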

Additional observations from a re-analysis of the deposited data

How the results depend on the processing

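No member passed an adjusted p under 0.05 in any alternative that kept all 4 libraries (lowest limma adjusted p 0.407, with the replicate block). The fold change of a member turned its sign in 44 of 455 values, 40 with a library left out and 4 elsewhere. Testing every listed gene, the stricter filter, the replicate block and the robust variance estimate cannot alter a fold change. Summing HSPA1A and HSPA1B cannot alter that of another member. The 455 values thus include many whose sign was fixed in advance. Outside the omission of libraries, HSPA9 (0.0097) and CCT4 (0.010) turned positive under upper quartile scaling, which left 32 of 38 members and 48.6% of all genes below 0, CCT4 (0.014) with protein coding transcripts alone, and BAG6 (-0.037) with BAG6-249 left out, which was chosen after seeing the data. With a library left out, the sign turned for 24 members, whose values ranged as follows: HSPA1A (-0.84 to 0.49), HSPA1B (-0.77 to 0.53), HSPA8 (-0.71 to 0.42), HSPA9 (-0.11 to 0.096), HSPH1 (-0.38 to 0.12), HSP90AA1 (-0.44 to 0.012), HSP90AB1 (-0.17 to 0.11), HSPD1 (-0.23 to 0.10), HSPE1 (-0.39 to 0.32), DNAJA1 (-0.65 to 0.086), DNAJB6 (-0.23 to 0.049), CCT3 (-0.26 to 0.066), CCT4 (-0.081 to 0.067), CCT6A (-0.38 to 0.033), CCT8 (-0.22 to 0.037), STIP1 (-0.50 to 0.0013), STUB1 (-0.29 to 0.25), BAG1 (-0.50 to 0.33), BAG2 (-0.25 to 0.028), BAG3 (-0.20 to 0.15), BAG6 (-0.055 to 0.39), HSF1 (-0.39 to 0.14), AHSA1 (-0.29 to 0.049) and PTGES3 (-0.64 to 0.064). The median of the members ranged from -0.28 to 0.03, and members below 0 numbered 31 without shCtrl replicate 1, 19 without shCtrl replicate 2, 17 without shKIAA1429 replicate 1 and 31 without shKIAA1429 replicate 2. In these fits an arm holds 1 library, which is assumed to vary like the other group. Members with an unadjusted p under 0.05 numbered 0 to 2 and other pathway genes 0 to 2 (4.37% to 6.30% of all genes). Member transcripts with an unadjusted p under 0.05 numbered 6 to 19 (5.49% to 8.24% of all transcripts), and all genes past both thresholds 0 to 1. Members whose groups did not overlap numbered 9 to 35 of 38, against 62.9% to 71.3% of all genes. They numbered 35 without shCtrl replicate 1 and 30 without shKIAA1429 replicate 2, above the shares of all genes there (69.1% and 71.3%). They numbered 16 without shCtrl replicate 2 and 9 without shKIAA1429 replicate 1, below the shares of all genes there (62.9% and 63.8%). A source of this swing was not tested. A fold change over 1 alone was met by 125 genes.

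The replicate block raised the counts with an unadjusted p under 0.05 to 7 members, 4 other pathway genes and 16 member transcripts, while 10.9% of all genes and 6.87% of all transcripts passed. The difference of replicate 2 minus replicate 1 in shCtrl correlated with that in shKIAA1429 at 0.32 across genes and 0.064 across transcripts. With only 2 pairs and no label that ties the numbers to a shared culture or batch, the samples were not treated as pairs, and what same-numbered samples share was not tested. Depth is not known, so the low values of BAG1, BAG2 and HSPA14 carry an unknown counting error.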
